A study of Mus musculus with 4 samples.

Results

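The genes described here encode 10 transcription factors of the basic leucine zipper (bZIP) class that act with ATF4 or are known as its targets: Atf4, Cebpb, Cebpg, Cebpa, Cebpd, Ddit3, Atf3, Atf5, Jdp2 and Creb3l1. They were taken by name from 21887 coding genes. For each gene, the ATF4 peaks whose summit lay inside the gene or within 50 kb of it were collected. ATF4-bound chromatin had been immunoprecipitated and sequenced (ChIP-seq) from cultures of cortical neurons, prepared from CD1 mouse embryos at E14.5-15, transduced with lentivirus on culture day 6 and harvested on day 11. The ATF4 ChIP library of Opa1 knock-down neurons (shOpa1) was set against that of wild-type neurons carrying a control hairpin (shControl), with 1 library in each group. Opa1 encodes a GTPase of the inner mitochondrial membrane that is needed for the fusion of mitochondria. All cultures had been treated with cytosine arabinoside at 2 µM, an inhibitor of dividing cells. The sources used here do not give how many hairpins or embryos each library represents. An IgG library and an input library from shControl neurons also belong to the series and were not analysed here.

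bZIP factors bind DNA as dimers held together by their leucine zippers, so the choice of partner sets which sequence is recognised. ATF4 is translated when the initiation factor eIF2 is phosphorylated, during the integrated stress response, and pairs with C/EBP proteins on composite C/EBP-ATF elements. Several of its targets are themselves bZIP genes whose products take part in the later course of the response.

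The shOpa1 list held 952 peaks and the shControl list 93. With 1 library in each group there is no replicate check, no difference between the libraries was tested, and intervals cover counting error only. Tags in peaks summed to 33318 in the shOpa1 list and 2424 in the shControl list. The sources used here give no total sequencing depth, so tags are not scaled and a gene without a peak is not shown to be unbound. A peak's fold is the authors' enrichment over the background of their peak caller. In a bulk culture, more cells with an occupied site and firmer binding in each cell cannot be told apart. Neither the knock-down of Opa1 nor the neuronal identity of the cells can be checked from these peak lists, which hold no expression values.

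Of the 10 genes, 7 had a summit within reach in the shOpa1 list (Ddit3, Atf5, Creb3l1, Cebpg, Cebpb, Atf3 and Jdp2) and 5 in the shControl list (Ddit3, Atf5, Creb3l1, Cebpg and Cebpb). Among all coding genes the share with a summit that close was 6.23% in the shOpa1 list and 0.927% in the shControl list. Atf4, Cebpa and Cebpd had none in either list. The 7 genes had 9 summits in the shOpa1 list, because Ddit3 and Atf3 had a pair each, and the 5 genes had 5 in the shControl list. The median fold of these peaks was 16.7 against 8.13 over the whole shOpa1 list, and 10.04 against 7.53 over the whole shControl list. The genes were chosen with these lists already known, so these shares and medians are descriptions.

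Stretches of sequence are shown for Atf3, Ddit3 and Jdp2, where a shOpa1 peak covered an annotated start and one of the motifs searched. They come from RefSeq promoter windows (GRCm38.p6, 250 bases before to 50 after each annotated start), which matched 8 of the 10 genes in 11 windows. The first pair gives the 250 bases that end just before the start of Atf3 (chr1:191183334-191183583, minus strand) and of Ddit3 (chr10:127290543-127290792, plus strand). The second pair sets a 30-base stretch of Atf3 (chr1:191183425-191183454, minus strand) beside one of Jdp2 (chr12:85599372-85599401, plus strand). Capitals mark matches on either strand to TGATGNAA, the core of the composite C/EBP-ATF element, to TGACGNAA, a related hybrid of a cyclic AMP response element and a C/EBP element, and to TGACTCA, the AP-1 element of Fos and Jun dimers.
Atf3 upstream: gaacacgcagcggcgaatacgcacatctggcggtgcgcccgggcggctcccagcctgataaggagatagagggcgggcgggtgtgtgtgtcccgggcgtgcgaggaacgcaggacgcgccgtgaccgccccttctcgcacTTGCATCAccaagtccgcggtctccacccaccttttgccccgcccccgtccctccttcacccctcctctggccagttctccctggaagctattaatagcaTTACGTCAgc
Ddit3 upstream: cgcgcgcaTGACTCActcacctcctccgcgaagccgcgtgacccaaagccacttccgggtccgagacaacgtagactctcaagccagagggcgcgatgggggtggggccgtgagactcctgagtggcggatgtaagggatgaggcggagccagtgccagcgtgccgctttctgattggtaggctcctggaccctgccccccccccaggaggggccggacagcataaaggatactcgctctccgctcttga
Atf3 site: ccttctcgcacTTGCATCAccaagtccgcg
Jdp2 site: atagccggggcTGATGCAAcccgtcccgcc
The Atf3 match to TGATGNAA and the Jdp2 match lie on opposite strands relative to their genes, and both carry the letters TGATGCAA when read on the strand that matches.

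Atf4 itself, the gene of the immunoprecipitated factor, had no peak nearby. The nearest summit to Atf4 (chr15:80255184-80257545) was 2.92 Mb away in the shOpa1 list and 10.35 Mb away in the shControl list. Its promoter window held none of the motifs searched.

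Of the C/EBP genes, Cebpg and Cebpb had a peak in both lists and Cebpa and Cebpd in neither. Cebpg encodes C/EBP gamma, a dimer partner of ATF4 at genes of amino acid and redox metabolism. Its shOpa1 peak held 93 tags (exact 95% Poisson interval 75.1 to 114) at a fold of 21.03, and its shControl peak held 36 tags (25.2 to 49.8) at a fold of 8.78. The summit lay inside Cebpg, 223 bp after its start in the shOpa1 list and 310 bp after it in the shControl list, in a stretch that also belongs to the annotated coding gene Gm45095. The shOpa1 peak ran from 230 bp before the start to 677 bp after it, and so covered most of the promoter window.

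Cebpb, an intronless gene, encodes C/EBP beta, a regulator of inflammatory and metabolic genes and a further partner of ATF4. Its peak had a fold of 16.73 and 71 tags (55.5 to 89.6) in the shOpa1 list and a fold of 7.53 and 26 tags (17.0 to 38.1) in the shControl list. The summit lay in the gene body, 1163 bp after the start in the shOpa1 list and 1229 bp after it in the shControl list, of a gene 1518 bp long. The Cebpb peak therefore sat toward the far end of the gene in both lists and overlapped no promoter window.

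Cebpa encodes C/EBP alpha, a factor of fat and myeloid cell differentiation, and is the neighbour of Cebpg on chromosome 7, with 62727 bp between the genes. The Cebpg summit was the nearest one to Cebpa, at 62950 bp in the shOpa1 list and 63037 bp in the shControl list. Those distances are outside the 50 kb limit but within the 100 kb window run as an alternative, which counts Cebpa in both lists. Cebpd, whose product C/EBP delta takes part in the acute-phase response, had its nearest summit 3.5 Mb away in the shOpa1 list and 20.17 Mb away in the shControl list.

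Ddit3 encodes CHOP, which forms dimers with C/EBP proteins and promotes apoptosis during prolonged endoplasmic reticulum stress. It carried the peak with the highest fold among these genes in the shOpa1 list. That peak (chr10:127290123-127290868) had a fold of 34.42 and 109 tags (89.5 to 131) in the shOpa1 list, where it ranked 10. The shControl peak (chr10:127290281-127290769) had a fold of 10.04 and 30 tags (20.2 to 42.8) and ranked 19. Both summits lay upstream of Ddit3, 297 bp before its start in the shOpa1 list and 267 bp before it in the shControl list, and inside the annotated span of Mbd6, a gene of the methyl-CpG-binding domain family. The summits were thus just outside the 250 bases printed above, while the peak intervals reached into them.

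The Ddit3 stretch printed above holds the AP-1 letters TGACTCA 236 to 242 bases before the start, and it holds neither TGATGNAA nor TGACGNAA. The summits of the upstream Ddit3 peak lay beyond this stretch in both lists, where no sequence was searched. The motifs at the middle of that peak are therefore not known here. Of all 32851 promoter windows, 5.2% held the AP-1 letters. A second shOpa1 peak counted for Ddit3 (chr10:127311273-127312040) lay 15366 bp from it, inside Mars1, the cytosolic methionyl-tRNA synthetase gene. This Mars1 peak had a fold of 12.91 and 50 tags (37.1 to 65.9), overlapped no shControl peak and reached the Mars1 promoter window.

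Atf3 is an early stress gene that neurons also induce after injury to their axons. Its promoter peak (chr1:191183076-191183627) was called in the shOpa1 list alone, with a fold of 11.0 and 35 tags (24.4 to 48.7), and ranked 234. The Atf3 summit lay 19 bp before the start, inside the promoter window. In the stretch printed above the composite letters stand 103 to 110 bases before the Atf3 start and the hybrid letters 3 to 10 bases before it. Their centres were 87.5 bp and 12.5 bp from the summit.

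A second Atf3 peak in the shOpa1 list (fold 8.05, 25 tags, 16.2 to 36.9) was 46531 bp away and close to the 50 kb limit. It lay inside the annotated gene Gm46178 and was nearer to Batf3, a bZIP gene of dendritic cell development, at 14822 bp. In the shControl list the summit nearest to Atf3 was 13.73 Mb away.

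Atf5 encodes a stress factor linked to the mitochondrial unfolded protein response and is regarded as the mammalian counterpart of the Caenorhabditis elegans factor ATFS-1. Its peak ranked 6 in the shOpa1 list, with a fold of 31.07 and 117 tags (96.8 to 140), and 4 in the shControl list, with a fold of 12.54 and 47 tags (34.5 to 62.5). Only the Creb3l1 peak ranked higher among these genes in the shControl list, and no other one did in the shOpa1 list. The summit of this peak (chr7:44818733-44819508 in the shOpa1 list) was 2463 bp before the nearest annotated Atf5 start in the shOpa1 list and 2413 bp before it in the shControl list. It lay inside the overlapping genes Nup62, a nuclear pore component, and Il4i1b, so the peak is not tied to Atf5 by position alone. Neither of the Atf5 promoter windows overlapped the peak.

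Jdp2 encodes a repressor that dimerises with Jun proteins and with ATF and C/EBP factors. It had the peak of lowest fold in the group (chr12:85599233-85599622), called in the shOpa1 list alone with a fold of 6.69 and 19 tags (11.4 to 29.7), where it ranked 804. The Jdp2 summit was 12 bp after the middle of the 3 annotated starts. The composite letters shown above stand 26 to 33 bases before that start, with their centre 41.5 bp from the summit. The same gene cluster holds Batf and Fos, whose nearest ends were 87292 bp and 122154 bp from this summit.

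Creb3l1 encodes OASIS, a factor anchored in the endoplasmic reticulum membrane and freed by proteolysis, best known from bone-forming cells. It is of the CREB3 family and had a strong site that was far from the gene. The shOpa1 peak (chr2:92055180-92055996) had a fold of 29.64 and 103 tags (84.1 to 125) and ranked 14. The shControl peak (chr2:92055363-92056083) had a fold of 13.17 and 58 tags (44.0 to 75.0) and ranked 3. The summit was 31419 bp from Creb3l1 in the shOpa1 list and 31554 bp in the shControl list, in a stretch between genes. The nearest coding gene other than Creb3l1 was Dgkz, 79146 bp from the shOpa1 summit and 79281 bp from the shControl summit. Dgkz lies on the far side of Creb3l1 and so does not border this stretch.

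**Figure D1:**
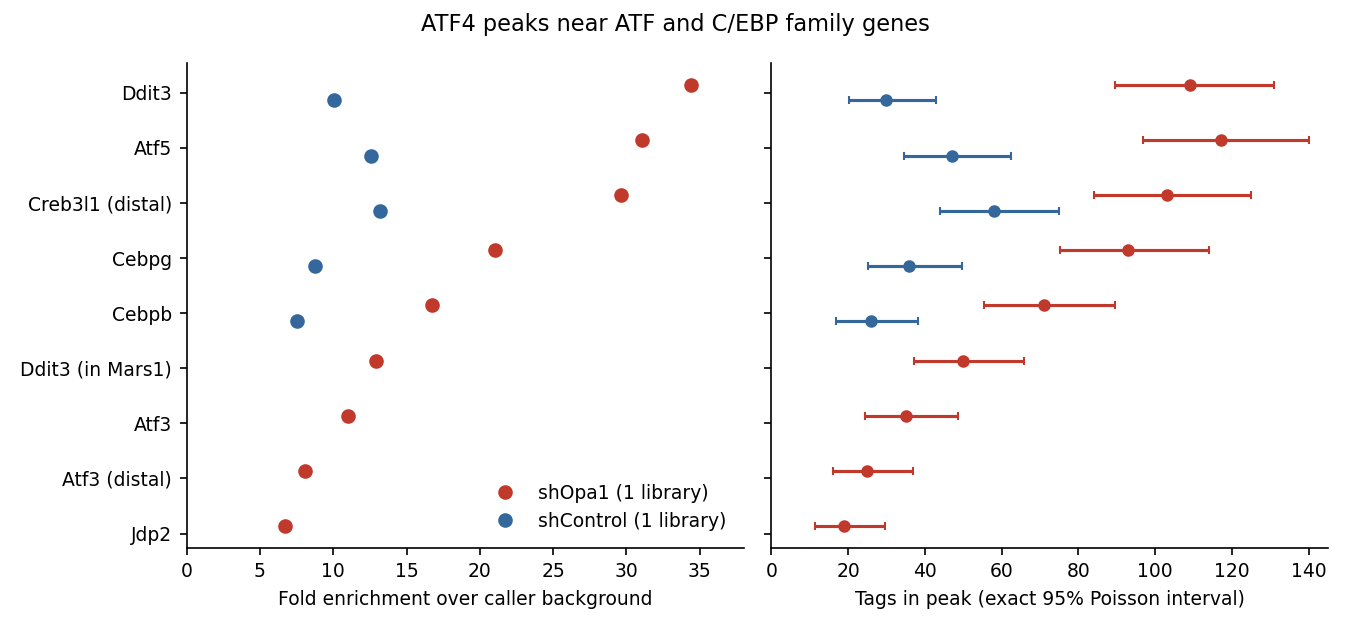
Fold enrichment over the caller's background (left) and tags in the peak (right) for each of the 9 shOpa1 peaks and 5 shControl peaks near the bZIP genes, 1 library in each group, with bars for exact 95% Poisson intervals that cover counting error only. At the 5 sites called in both lists the shOpa1 fold lies at 16.73 to 34.42. The 5 shControl folds shown lie below that range, at 13.17 or less.

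**Figure D2:**
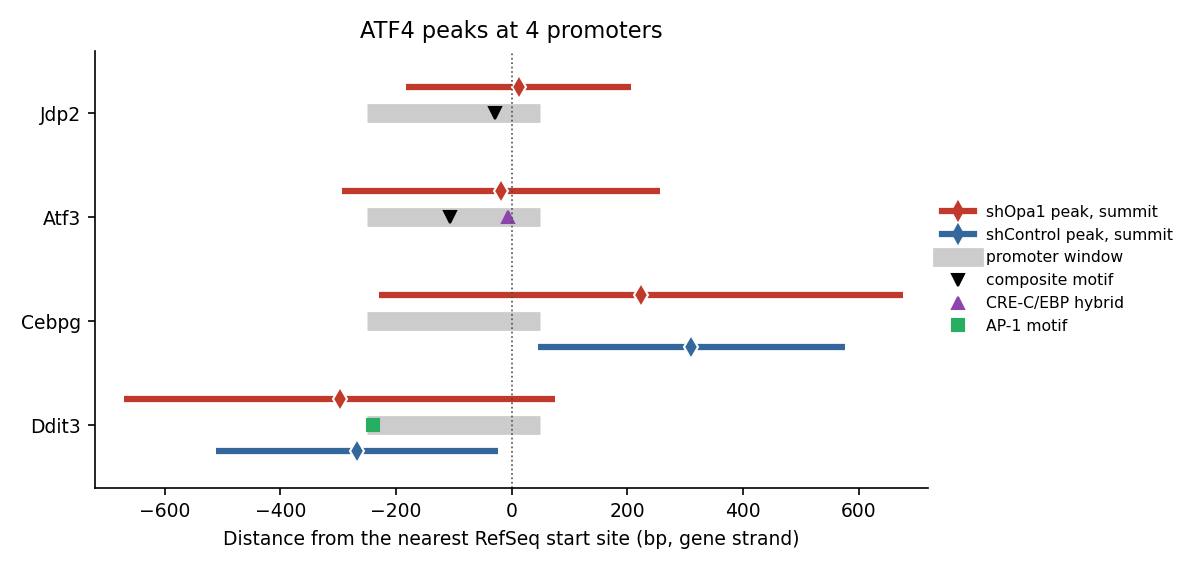
Peak intervals (lines) and summits (diamonds) at Jdp2, Atf3, Cebpg and Ddit3, by distance in bp from the nearest RefSeq start, with the promoter window in grey and motif matches as symbols. The Atf3 and Jdp2 summits, 19 bp before and 12 bp after the start, fall inside the window, and the Cebpg and Ddit3 summits fall outside it.

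Peak position thus differed among the 7 genes with a summit in reach. Atf3 and Jdp2 had a summit within 19 bp of a start, Cebpg and Ddit3 223 bp after and 297 bp before it in the shOpa1 list, Cebpb near its far end, while the Atf5 peak lay upstream inside neighbouring genes and the Creb3l1 peak lay far outside its gene. With the window narrowed to 5 kb, 6 of the 10 genes had a summit in the shOpa1 list and 4 in the shControl list, where the shares of all coding genes were 2.65% and 0.324%.

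Among the 9 shOpa1 peaks near these genes, the 5 called in both lists had the highest folds. Each of the 5 shControl peaks near these genes overlapped a shOpa1 peak (95% Clopper-Pearson interval of the share 47.8 to 100%), as did 80 of all 93 shControl peaks (86.0%). That interval treats the 5 as independent draws, although the genes were chosen with the lists known. The 5 shared shOpa1 peaks had folds of 16.73 to 34.42, and the 4 unshared ones (Ddit3 in Mars1, both Atf3 peaks and Jdp2) had folds of 6.69 to 12.91, so these ranges did not overlap. Over the whole shOpa1 list the median fold was 17.6 at the 80 shared peaks and 7.65 at the 872 unshared ones, so shared peaks had the higher median there too. The ranges did overlap over the whole list, where a shared peak had a fold as low as 4.34, below that unshared median. The lowest tag number of any shControl peak was 15, and the unshared Jdp2 peak held 19 tags in the shOpa1 list. These numbers are not on one scale, since shared sites held 2.75 times as many tags in the shOpa1 list in the median.

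At the shared sites the ratio of shOpa1 to shControl fold was 3.43 for Ddit3, 2.48 for Atf5, 2.40 for Cebpg, 2.25 for Creb3l1 and 2.22 for Cebpb. The median was 2.40, beside 2.26 over all 80 shared sites, which ranged from 0.762 to 5.08 and had the higher fold in the shOpa1 list at 75. Tags in the peak were 3.63 times as many in the shOpa1 list at Ddit3 and 1.78 times as many at Creb3l1, the highest and lowest of the 5, with a median of 2.58 beside 2.75 over all shared sites. These folds and tags come from separate calls on libraries of unknown depth, so the ratios describe the lists and are not a measured change in binding.

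The peaks were also wider in the shOpa1 list at all 5 sites, by 1.13 times (Creb3l1) to 1.89 times (Cebpb), as they were at all 80 shared sites. At 4 of the 5 the shControl interval lay wholly inside the shOpa1 interval, with Creb3l1 the exception, as it did at 78 of all 80 shared sites. Summits of the 2 lists were 30 bp apart at Ddit3 and 135 bp apart at Creb3l1, with a median of 66 bp over the 5 sites and 32 bp over all 80. In all 886 shOpa1 and 84 shControl peaks of the commoner format, which include every peak near these 10 genes, the deposited summit was within 1 bp of the middle of the interval. Distances given here are therefore distances from the middle of a peak, and a shift between lists can come from its edges.

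**Figure D3:**
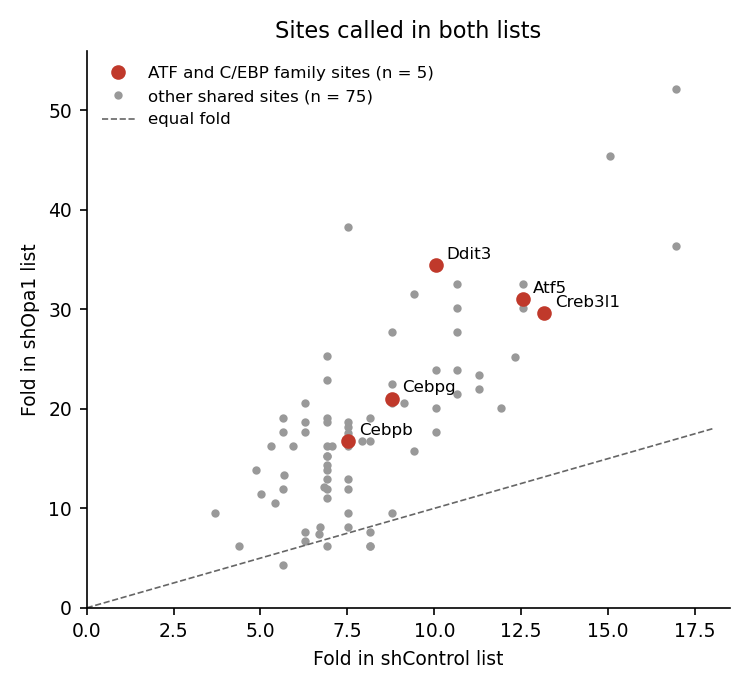
Fold of the shOpa1 peak (vertical) against the fold of the overlapping shControl peak (horizontal) at the 80 sites called in both lists, with the 5 sites near bZIP genes in red and a dashed line at equal folds. All 5 lie above the line, as do 75 of all 80, with Ddit3 at 34.42 against 10.04 the farthest from it among them.

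**Figure D4:**
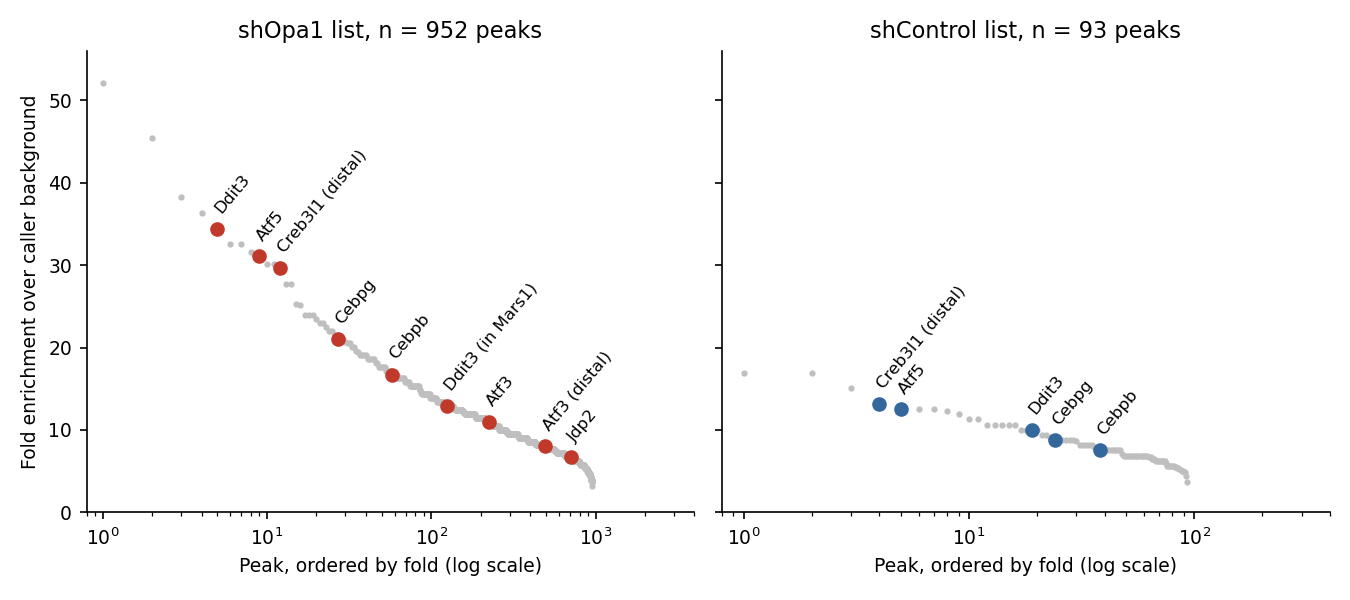
Fold of every peak in the shOpa1 list (left, 952 peaks) and the shControl list (right, 93 peaks), ordered from highest to lowest on a log axis, with peaks near the bZIP genes coloured and named. In the shOpa1 list they run from 34.42 (Ddit3) to 6.69 (Jdp2), and in the shControl list from 13.17 (Creb3l1) to 7.53 (Cebpb).

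The promoter windows were searched for motifs of ATF4, its partners and AP-1. The longer composite motif TGATGNAAT was in 0 of the 11 windows of these genes, and in 0.965% of all windows. The shorter TGATGNAA was in 2 of the 11, those of Atf3 and of the Jdp2 start beside the summit, and in 3.97% of all windows. TGACGNAA was in the Atf3 window and in 1.59% of all windows. Atf3 and Jdp2 were also the genes of the group with a summit inside a promoter window. The cyclic AMP response element TGACGTCA, present in 1.79% of all windows, and the C/EBP palindrome TTGCGCAA, present in 0.183%, were in none of the 11. A match is a description of the letters in these windows, and sequence outside them was not searched.

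The other bZIP genes were read from a list of 43 compiled from general knowledge. In the shOpa1 list 9 of the 43 had a summit in the gene or within 50 kb (20.9%), beside 6.23% of coding genes, and in the shControl list 2 of 43 (4.65%), beside 0.927%. Within 5 kb there were 3 in the shOpa1 list (6.98%), beside 2.65% of coding genes, and 1 in the shControl list (2.33%), beside 0.324%. Nfil3, a repressor with a role in circadian timing, held a peak in both lists, with a fold of 15.3 and 57 tags in the shOpa1 list and a fold of 6.9 and 20 tags in the shControl list. Nfe2l1, a regulator of proteasome genes, held a peak of fold 9.56 and 42 tags in the shOpa1 list alone, as did Bach2, a repressor known from B cells, with a fold of 5.74 and 26 tags. The other 6 genes with a shOpa1 summit lay 8544 to 47796 bp from it, and for 4 of them another coding gene was nearer. Batf3, among these 6, is counted through the distal Atf3 peak described above. In the shControl list the gene beyond 5 kb had its summit 15217 bp away, and another coding gene was 65 bp from that summit. Upstream of ATF4, none of 7 genes (the eIF2 kinases Eif2ak1 to Eif2ak4, Eif2s1, Oma1 and Dele1) had a summit within 50 kb in either list. The shares of all coding genes were 6.23% and 0.927%, so a count of none among 7 genes is close to those shares.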

How the data were processed

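The authors deposited 1 ATF4 peak list for shOpa1 neurons and 1 for shControl neurons. Peaks were mapped with MACS2 on mm10, per the submitters' processing notes, which also list deepTools and MultiQC. The sources used here give no aligner, threshold or control library. The deposited lists give for each peak a position, a rank, a p-value score, a fold (ratio over the caller's background), a summit and a tag number, and the ranks quoted follow the deposited order. Each list joins 2 peak formats whose scores are on different scales, so that order mixes both, and medians over a whole list take in both formats. Starts and ends were read as 1-based. Per the labels' protocols, formaldehyde fixation took 30 minutes and fragments averaged 150 bp.

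Gene spans came from RefSeq (GRCm38.p6, the coordinates of mm10) and matched all 10 genes and all 50 genes of the other lists. Starts and strands came from its promoter windows. Distance runs from the summit to the gene's span, or to a start where one is named. A summit within reach of several genes counts for each. Lists overlap where peaks share at least 1 bp. Tags have exact 95% Poisson intervals and shares exact Clopper-Pearson ones. No test was run, since each group has 1 library. The distance window was tested on simulated peaks, and the motif search and Poisson interval on a few set cases. The other steps were not tested in this way.

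The genes, lists and motifs were chosen with earlier results of these data known. The text names all 10 genes, their peaks, the coding gene at or nearest to each peak, and other listed genes within 5 kb of a summit; Batf, Fos and the listed upstream genes were added after their values were seen. Alternatives covered windows, gene assignment, score, fold, format, overlap and motif length. Scripts ran in Python 3.11.15 with pandas 2.3.3, numpy 2.4.6, matplotlib 3.10.9 and scipy 1.17.1.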

Additional observations from a re-analysis of the deposited data

How the results depend on the processing

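Of 50 alternatives over 9 results, 42 left the value within 1.5 times of the one reported. When a summit counted only for its nearest coding gene, 5 summits and 5 bZIP genes counted in the shOpa1 list, in place of 9 and 7. In the shControl list 3 summits and 3 genes counted, in place of 5 each. The Ddit3 peak, the peak in Mars1, the Atf5 peak and the distal Atf3 peak each have another coding gene nearer, so Ddit3 and Atf5 dropped out. With a fold of at least 10, 7 summits and 6 genes counted in the shOpa1 list and 3 summits and 3 genes in the shControl list. Shares of all coding genes under the nearest-gene and fold rules were not computed. With a window of 5 kb, which was added once the values were known, 3 of the other bZIP genes had a summit in the shOpa1 list and 1 in the shControl list. The motif TGATGNAA was in 2 windows in place of 0 for TGATGNAAT. The 5 shared sites and their median fold ratio of 2.40 were 4 and 2.44 with the 5 kb window and came out at 5 and 2.40 under the other overlap, score, format and window settings run. No paired analysis was possible because each group has 1 library, and leaving out a library leaves no comparison. Depth is unknown, so Atf3 and Jdp2, with no shControl peak, are not shown to be unbound in shControl neurons.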

Other observations

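Across the genome, 41 promoter windows held a shOpa1 summit and 11 held a shControl summit. The composite letters TGATGNAA were in 25 of the 41 windows (61.0%, 95% Clopper-Pearson interval 44.5 to 75.8) and in 8 of the 11 (72.7%, 39.0 to 94.0), beside 3.97% of all 32851 windows. The longer TGATGNAAT was in 5 of the 41 (12.2%, 4.08 to 26.2) and in 3 of the 11 (27.3%, 6.02 to 61.0), beside 0.965%. The hybrid TGACGNAA was in 14 of the 41 (34.1%, 20.1 to 50.6) and in 3 of the 11 (27.3%, 6.02 to 61.0), beside 1.59%. TGATGNAA or TGACGNAA was in 33 of the 41 and 10 of the 11, and in 5.48% of all windows. The AP-1 letters TGACTCA were in 1 of the 41 (2.44%, 0.0617 to 12.9) and in 1 of the 11 (9.09%, 0.23 to 41.3), beside 5.2%. Neither TGACGTCA nor TTGCGCAA was in any of the 41, which allows a share of up to 8.6% by the same interval. In the 25 windows the composite site nearest to the shOpa1 summit had its centre 41.5 bp from it in the median, and in 23 it was within 100 bp. Site and summit had to lie in the same promoter window, which alone limits these distances, and no baseline was computed for them. Of the composite sites there, 19 had C at the open base of the motif, 7 had A, 4 had T and 0 had G. The Atf3 and Jdp2 windows are among the 41. These shares were computed after the Atf3 and Jdp2 matches were seen and describe windows, some of which belong to alternative starts of the same gene.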
